A study of Mus musculus with 6 samples.

Results

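Sprr1a, Lmo7 and Lipn are 3 genes best known from epithelia that were measured here in sensory neurons of the mouse. They are 3 of the 17022 gene names, and hold 18 of the 60744 transcript isoforms, in a table of expression after nerve injury. They were chosen by name, and the choice was made with the difference between the injured and control libraries in view, so that difference is described below for the 3 genes and is not tested. The neurons were cut by laser microdissection from frozen dorsal root ganglia, where the cell bodies of sensory neurons lie beside the spinal cord. All animals were male C57Bl/6 mice of 4 to 6 weeks that the labels also call adult, and no transgene or other genetic change is named for either group. In the crush group (3 libraries) the sciatic nerve, which carries the axons of many of these neurons, was crushed for 10 seconds. In the sham group (3 libraries) the nerve was laid open for 10 seconds and not crushed. Ganglia of lumbar levels 3, 4 and 5 on the operated side were taken at 7 days. No source used here says whether each library is a separate animal. The p-values therefore cover only the spread between these libraries, part of which may be technical. How many of the neurons in a library had been injured is not given either.

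Sprr1a encodes a small proline-rich protein that transglutaminases cross-link into the cornified envelope, the protein shell of the outermost skin cells. It is also a long-known marker of axotomized dorsal root ganglion neurons. Lmo7 encodes a large scaffold protein with a calponin-homology, a PDZ and a LIM domain, which binds afadin and alpha-actinin at adherens junctions and the nuclear envelope protein emerin. Lipn encodes a member of the acid lipase family, whose best-known member is the lysosomal lipase Lipa, and its expression is known from keratinocytes late in their differentiation. The label of epithelial type thus comes from what is known of these genes in skin and other epithelia, whereas the samples here were neurons.

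The sequence just upstream of each gene's start is shown because the 3 genes were higher together in the crush libraries, and transcription factors act through short motifs in such sequence. The RefSeq table of promoters (GRCm38.p6) held all 3 genes, with 1 start for Sprr1a and Lipn and 2 starts for Lmo7. Each line gives the 250 bases before the start, 5′ to 3′ on the strand of the gene, and capitals mark matches to the AP-1 motif TGANTCA and to the TATA box TATAAA. Sprr1a lies on the minus strand at chr3:92485882-92486131, Lipn on the plus strand at chr19:34067108-34067357, and the more 3′ of the 2 Lmo7 starts on the plus strand at chr14:101840373-101840622. The more 5′ Lmo7 start lies 204.8 kb from the end of the gene in GRCm38, further than the 126.5 kb that the longest assembled isoform spans in mm9, and the one printed lies 94.1 kb from it. Positions were not matched across builds, so the starts of the isoforms measured here were not tied to a RefSeq start.

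Sprr1a: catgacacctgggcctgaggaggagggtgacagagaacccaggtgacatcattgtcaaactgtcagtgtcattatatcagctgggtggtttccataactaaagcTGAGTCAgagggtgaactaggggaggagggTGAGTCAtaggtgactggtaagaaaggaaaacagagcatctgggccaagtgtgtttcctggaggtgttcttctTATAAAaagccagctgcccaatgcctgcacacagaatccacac
Lipn: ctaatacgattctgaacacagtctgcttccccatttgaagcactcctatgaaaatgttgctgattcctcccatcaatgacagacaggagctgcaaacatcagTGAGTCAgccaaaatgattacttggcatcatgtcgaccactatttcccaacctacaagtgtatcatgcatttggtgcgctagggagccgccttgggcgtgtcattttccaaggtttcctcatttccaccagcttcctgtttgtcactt
Lmo7: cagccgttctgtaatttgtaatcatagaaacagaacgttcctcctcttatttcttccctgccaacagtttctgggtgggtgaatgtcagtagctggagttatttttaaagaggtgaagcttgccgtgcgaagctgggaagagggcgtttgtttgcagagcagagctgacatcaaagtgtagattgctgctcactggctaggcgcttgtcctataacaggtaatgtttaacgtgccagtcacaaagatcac

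AP-1 is the dimer of Jun, Fos and ATF family proteins, and its motif was found 2 times in the Sprr1a sequence and 1 time in that of Lipn. In Sprr1a the copies lie at -146 to -140 and at -116 to -110 from the start, and in Lipn the copy lies at -148 to -142. All 3 copies have the same letters, TGAGTCA. Neither Lmo7 sequence holds one. Among the 32851 promoter sequences of this length in the table, 6.75% hold the motif at least once and 0.338% hold it 2 or more times. Sprr1a has a TATA box at -43 to -38, a sequence that 12.4% of all promoters hold somewhere in these bases. The core of the KLF motif, CACCC, was found 4 times in Sprr1a, 1 time at the more 5′ Lmo7 start, 2 times at the other Lmo7 start and not in Lipn. One Sprr1a copy at -119 to -115 overlaps the second AP-1 copy, and 52.0% of all promoters hold CACCC at least once. CRE (TGACGTCA, in 1.55% of promoters), STAT (TTCNNNGAA, 7.02%) and C/EBP (TTGCNNAA, 9.56%) motifs had no match in the 4 sequences. All 6 motifs were searched on both strands, and a match or its absence says only which letters stand in these bases.

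The sequences also differ in base composition. The sequence at the more 5′ Lmo7 start, at chr14:101729678-101729927, is 68.8% G or C with 20 CpG dinucleotides, against medians of 52.4% and 6 over all promoters. The more 3′ Lmo7 sequence has 46% and 7, Lipn has 46% and 5, and Sprr1a has 49.6% and no CpG.

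**Figure D1:**
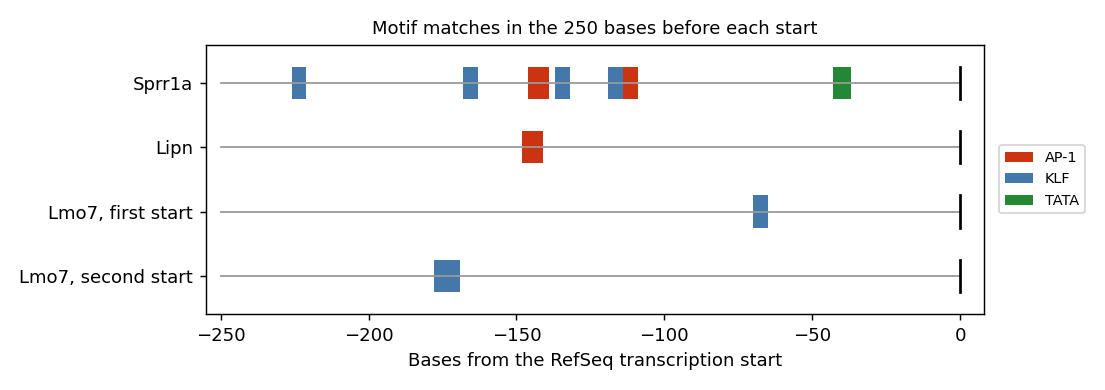
Motif matches in the 250 bases before the RefSeq starts of Sprr1a, Lipn and Lmo7, with distance from the start in bases on the x axis and 1 line for each of the 4 starts. AP-1 marks stand on the Sprr1a and Lipn lines only, and the TATA box on the Sprr1a line only.

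Expression was given by the authors as FPKM, fragments scaled for transcript length and for the mapped fragments of the library, for each isoform in each library, and isoform values were summed per gene here. Read counts cannot be had from FPKM, and the depth of each library was unknown. In the 6 libraries 12087 to 12347 genes reached 1 FPKM, and 12289 genes with a mean of at least 1 FPKM were tested. Of these, 464 (3.78%) passed limma's moderated test with a Benjamini-Hochberg adjusted p under 0.05, 293 (2.38%) higher and 171 (1.39%) lower in crush. This balance rests on the choice of libraries: without sham 2 and crush 3 it was 765 higher and 845 lower, without sham 2 607 and 567, and with library weights 734 and 695. By limma 2158 of the 12289 genes had an unadjusted p under 0.05, the background for such counts below. Sham 2 stood apart. Across genes, which are not independent replicates, it correlated at 0.978 and 0.981 with the other sham libraries. Those 2 correlated at 0.996, and the crush libraries at 0.993 to 0.996. Gene-level results for the 3 genes are therefore also given without sham 2 and crush 3, the crush library that was highest for each. In bulk samples, fewer cells of a type and less RNA per cell cannot be told apart.

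Sprr1a was the most abundant of the 3 genes in both groups. Its level was 88.9, 110.3 and 72.3 FPKM in sham 1 to 3 and 445, 454 and 640 FPKM in crush 1 to 3. Every crush library was above every sham library, and the lowest crush value was 4.04 times the highest sham value. The group means were 90.5 ± 19.03 and 513 ± 110.4 FPKM (SD, n = 3 in each group, as in all group means below), a ratio of 5.67. As a change in log2(FPKM + 1), the scale of all log2 changes here, this was 2.49, the third largest among the genes tested. Ranked by level, Sprr1a was number 696 of the 12289 genes in sham and number 51 in crush, so in sham it was already above most genes. The intervals deposited by the authors, whose level is not stated, reached up to 135 FPKM in sham 2 and down to 346 FPKM in crush 1, and no sham interval met a crush interval.

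Sprr1a was listed as a single isoform of 903 bases in 2 exons, on the minus strand of chromosome 3 from 92287903 to 92289943 in build mm9, with a reference identifier. A transcript on the opposite strand, assembled from 92287068 to 92288620 and listed without values, covers 646 of its 903 exon bases (71.5%). Strand was not stated to have been kept, so reads of these transcripts cannot be told apart. In the authors' deposited table, the group estimates were 87.4 FPKM for sham and 587 FPKM for crush, with a log2 fold change of 2.75. No 50-base stretch of the 757 distinct ones in the annotated Sprr1a transcript (GENCODE M21) occurs in a transcript of another gene, and the same held for 30-base stretches.

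Lmo7, the junction scaffold, was at a lower level than Sprr1a in every library. It measured 5.28, 3.26 and 3.94 FPKM in sham 1 to 3 and 16.6, 16.9 and 22.3 FPKM in crush 1 to 3. The groups did not overlap, with the lowest crush value 3.14 times the highest sham value. The means were 4.16 ± 1.03 and 18.6 ± 3.23 FPKM, a ratio of 4.47 and a log2 change of 1.93, the fifth largest. Its rank by level moved from number 8654 in sham to number 3588 in crush.

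Lipn, the acid lipase, was near the limit of what was tested in sham. Its level was 0.743, 0.866 and 0.768 FPKM in sham 1 to 3 and 5.37, 4.54 and 7.36 FPKM in crush 1 to 3. The lowest crush value was 5.24 times the highest sham value, the widest gap among the 3 genes. The means were 0.792 ± 0.0651 and 5.75 ± 1.45 FPKM, a ratio of 7.26. The log2 change was 1.89, the sixth largest, and 2.69 with 0.1 instead of 1 added to each FPKM value, since adding 1 shrinks the change of a gene this low. All 3 genes passed the filter of a mean of 1 FPKM, but Lipn passed only through its crush libraries. Its rank by level moved from number 12249, near the end of the tested genes, to number 7592.

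**Figure D2:**
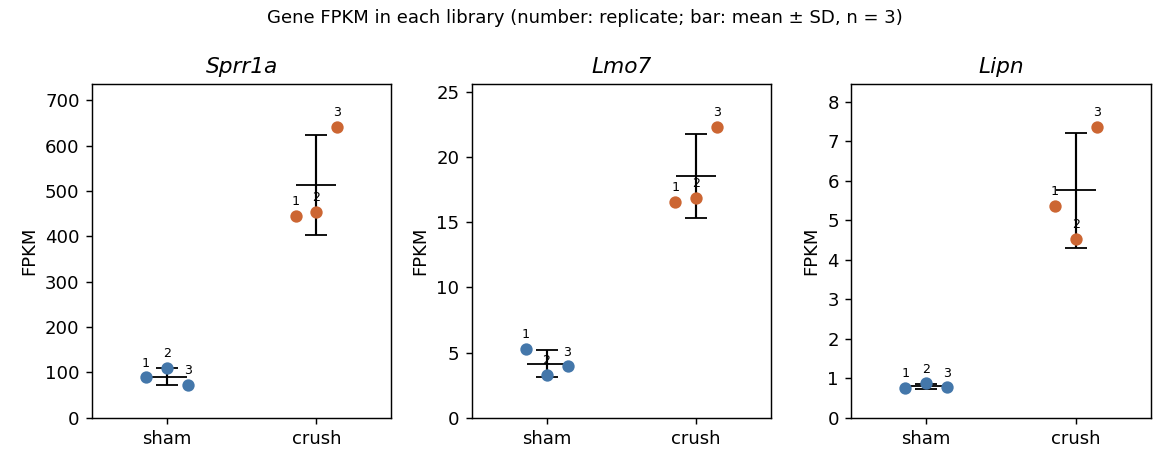
FPKM of Sprr1a, Lmo7 and Lipn, summed over isoforms, in 1 panel per gene on a linear axis from 0; each point is a library with its replicate number, and the bars give the mean ± SD of 3 libraries. Every crush point lies above every sham point in all 3 panels, and crush 3 is the highest in each.

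Per length, the order in both groups was Sprr1a, then Lmo7, then Lipn, and no value of one gene overlapped that of its neighbour in the order within a group. Groups that do not overlap, with crush above sham, were found for 3 of the 3 genes and for 12.2% of the genes tested. Since this contrast chose the genes, the count is not support for them. Crush 3 was the highest library for all 3 genes. In sham the order differed: sham 2 was highest for Sprr1a and Lipn, whereas Lmo7 was highest in sham 1 and lowest in sham 2. The spread within the sham group was smallest for Lipn, whose coefficient of variation was 8.22% in sham and 25.2% in crush. Without sham 2 and crush 3 (chosen after seeing the data), the log2 change was 2.47 for Sprr1a, 1.67 for Lmo7 and 1.76 for Lipn. The changes of Sprr1a and Lipn thus moved by less than their spread between libraries.

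Lmo7 is a long gene and most of its isoforms here were assembled from the reads. Its 13 isoforms lie on the plus strand of chromosome 14 (mm9) between 102206704 and 102333303, a span of 126.6 kb. All 13 end within 161 bases of each other, but their starts lie up to 112.0 kb apart. None carries a reference identifier. Their lengths ran from 866 to 5292 bases in 8 to 29 exons.

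Grouped by start, 10 isoforms began upstream, between 102206704 and 102240428, and together contain the long forms. Their summed level was 1.98, 1.19 and 1.79 FPKM in sham and 8.14, 7.73 and 9.69 FPKM in crush, a ratio of means of 5.15. The isoform that begins in the middle of the gene (Lmo7_j11, 3904 bases, start 102294993) measured 0.444, 0.579 and 0.513 FPKM in sham and 1.52, 1.74 and 2.65 FPKM in crush, a ratio of 3.85. The 2 short isoforms near the 3′ end summed to 2.86, 1.49 and 1.63 FPKM in sham and 6.93, 7.38 and 9.98 FPKM in crush, a ratio of 4.06. All 3 start classes were thus higher in every crush library than in any sham library. The share of the gene's FPKM in the upstream class was 39.8 ± 4.93% in sham and 46.1 ± 2.82% in crush, and that in the 3′ class was 47.1 ± 6.43% and 43.4 ± 1.495%. The shares of the 2 groups overlapped in both classes.

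Among single Lmo7 isoforms, the highest values in crush belonged to a long and a short form. Lmo7_j5 (4353 bases, 27 exons, start 102237579) measured 1.102, 0.588 and 0.988 FPKM in sham and 4.75, 4.50 and 5.78 FPKM in crush. Lmo7_j12 (1627 bases, 12 exons, start 102315132) measured 2.0, 1.49 and 1.63 FPKM in sham and 5.19, 4.00 and 7.34 FPKM in crush. As the ratio of group means, Lmo7_j5 held 21.5% of the gene's FPKM in sham and 27.0% in crush, and Lmo7_j12 held 41.1% and 29.6%. Lmo7_j6 (4971 bases, 29 exons) measured 0.721, 0 and 0.261 FPKM in sham and 1.74, 2.33 and 2.48 FPKM in crush. Lmo7_j13, the shortest, was listed at 0 in sham 2 and sham 3 and at 0.859 FPKM in sham 1, and measured 1.75, 3.38 and 2.63 FPKM in crush. Lmo7_j4, the longest, and Lmo7_j8 also had groups that did not overlap, at 1.14 FPKM or lower in every library. Deposited intervals of sham and crush libraries nevertheless met for Lmo7_j4, Lmo7_j8, Lmo7_j12 and Lmo7_j13. They did not meet for Lmo7_j5, Lmo7_j6 and Lmo7_j11.

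The other 6 Lmo7 isoforms stayed under 1 FPKM in every library, and their groups overlapped. Lmo7_j10 was highest in sham 2, at 0.602 FPKM, and listed at 0 in crush 2 and crush 3. In the authors' deposited table, the pooled crush estimate was 1.63 FPKM for Lmo7_j10 and 1.37 FPKM for Lmo7_j9, although the libraries of that group gave at most 0.0532 and 0.000812 FPKM for these isoforms. The division of fragments among these near-identical long isoforms thus differed between the pooled and the single estimates.

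Of the 10 upstream Lmo7 isoforms, 3 (Lmo7_j4, Lmo7_j6 and Lmo7_j10) carry 2 internal exons that the other 7 lack, at 102284508 to 102284789 (282 bases) and at 102286154 to 102286873 (720 bases) on chromosome 14 of mm9. In Lmo7_j4 the latter exon begins slightly further 3′, and smaller differences in other exons were not examined. These 3 isoforms summed to 0.721, 0.602 and 0.542 FPKM in sham and 2.94, 2.60 and 3.29 FPKM in crush, a ratio of 4.74. The 7 upstream isoforms without them had a ratio of 5.41. The share with these exons among the upstream isoforms was 36.4%, 50.6% and 30.3% in sham and 36.1%, 33.7% and 33.96% in crush. The crush values lay inside the sham range, so no difference in the use of these exons was seen beyond the spread between libraries.

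Lipn had 4 isoforms on the plus strand of chromosome 19 (mm9) between 34141647 and 34165842, a span of 24.2 kb. The isoform with a reference identifier (2163 bases, 10 exons) measured 0.465, 0.425 and 0.397 FPKM in sham and 1.95, 2.81 and 3.08 FPKM in crush, and its group mean was 54.1% of that of the gene in sham and 45.4% in crush. Lipn_j1 (8017 bases, 10 exons), whose last exon runs 5645 bases further than the shortest end, measured 0.0969, 0.114 and 0.0653 FPKM in sham and 1.11, 0.807 and 1.52 FPKM in crush. A transcript of 1 exon on the same strand, listed without values, shares 5531 of the 8159 exon bases of Lipn, all in this extension. Lipn_j2 (2181 bases) measured 0.181, 0.00341 and 0.305 FPKM in sham and 1.49, 0.485 and 1.304 FPKM in crush. Lipn_j3 (1154 bases, 2 exons), which starts 15.5 kb into the gene, was listed at 0 in sham 1 and sham 3 and measured 0.324 FPKM in sham 2, against 0.821, 0.436 and 1.45 FPKM in crush. Thus the value of every Lipn isoform was higher in each crush library than in any sham library. The deposited intervals did meet for Lipn_j2, up to 0.471 FPKM in sham 3 and down to 0.233 FPKM in crush 2. They also met for Lipn_j3, up to 0.551 FPKM in sham 2 and down to 0.139 FPKM in crush 2. For the reference isoform and Lipn_j1 no sham interval met a crush interval. In the authors' deposited table, the comparison of groups is marked as failed for all 4 Lipn isoforms, so no fold change of theirs is available for this gene. The authors' crush group estimate itself is also marked as failed for these 4 isoforms, whereas it is marked as OK for those of Sprr1a and Lmo7.

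Over the 18 isoforms of the 3 genes, the groups did not overlap, with crush higher, in 12: the 1 of Sprr1a, 7 of the 13 of Lmo7 and all 4 of Lipn. The background over all 60508 isoforms with any value above 0 was 6.47%. The mean was higher in crush for 15 of the 18. Only 7 of them reached a mean of 1 FPKM, 1 of Sprr1a, 5 of Lmo7 and 1 of Lipn, and these 7 are all among the 12; the background over the 24485 isoforms of that level was 7.95%. By limma 15 of the 24485 (0.0613%) passed in either direction, and no test is given for the 7. Since this contrast chose the 3 genes, these isoform counts are not support for them. Isoforms of 1 gene also share exons and are not independent members. Over all isoforms between 1 and 10 FPKM, the deposited interval extended to either side by a median of 31.2% to 32.4% of the value. By sequence, 0 of 12209 distinct 50-base stretches of the annotated Lmo7 transcripts and 0 of 1929 of those of Lipn occur in another gene's transcript. At 30 bases, 12 of 12089 stretches of Lmo7 (0.0993%) did, and 0 of 1909 of Lipn. The check covered annotated transcripts and not the assembled isoforms, which hold 8159 exon bases in Lipn. Reads themselves were not examined.

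**Figure D3:**
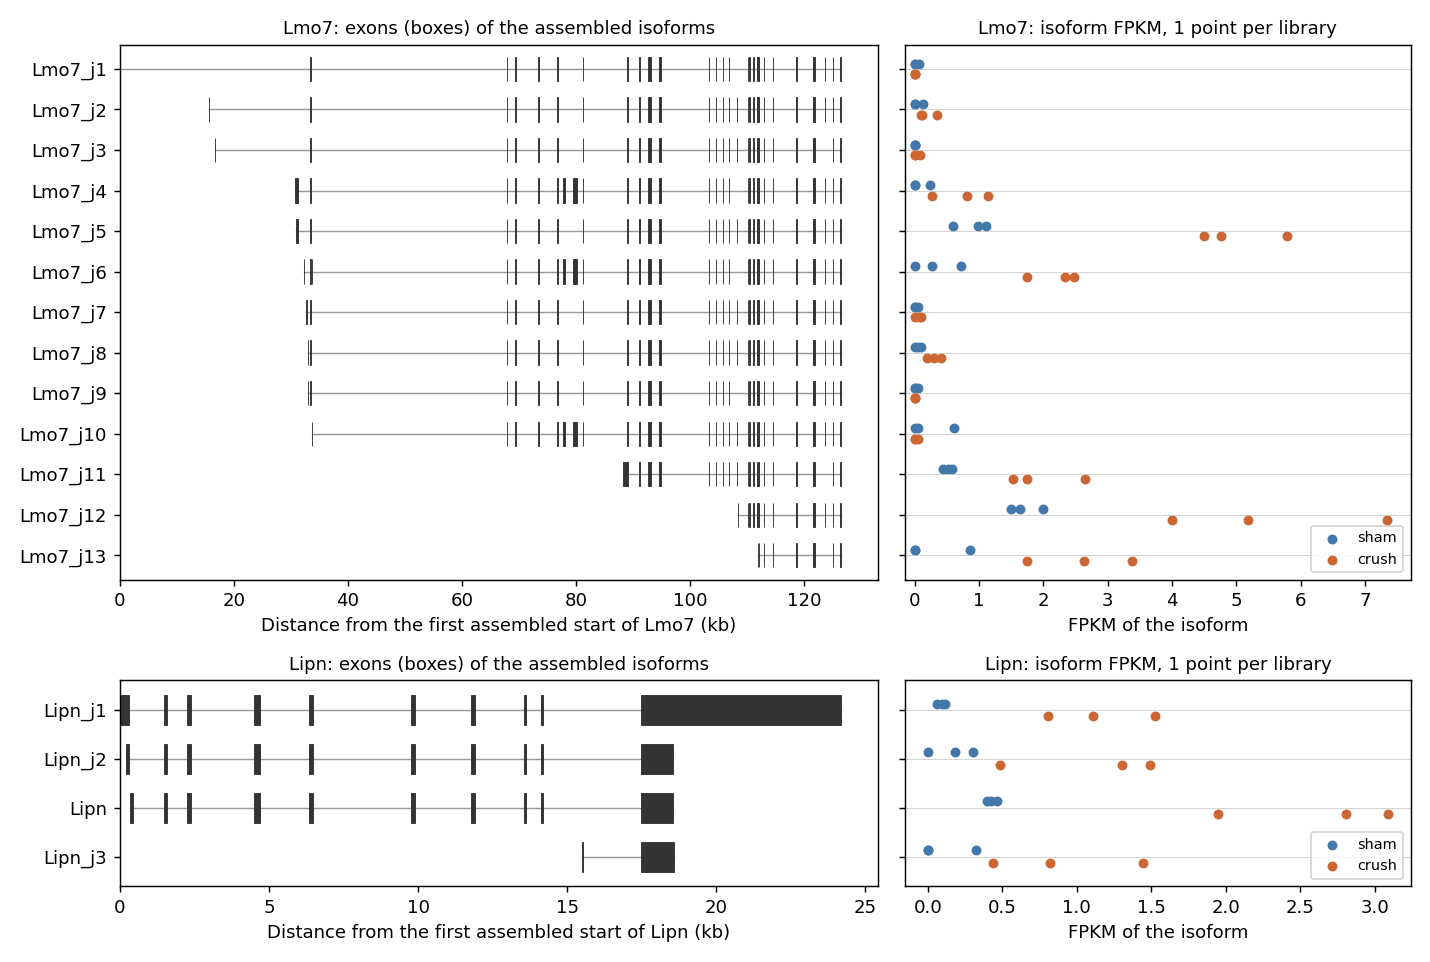
Left panels, exons (boxes) of the 13 Lmo7 and 4 Lipn isoforms in kb from the first assembled start of each gene; right panels, FPKM of each isoform, 1 point per sham or crush library. The Lmo7 isoforms share their 3′ end and start at places up to 112.0 kb apart, and every Lipn isoform has its crush points to the right of its sham points.

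The genes whose 6 values ran most like those of each gene were found by the root-mean-square difference of log2 values centred on each gene's mean, over the 6 libraries; a smaller number means a closer match. For Sprr1a the 5 closest were Car3 (0.25), Gal (0.33), Lipn (0.34), Anxa10 (0.35) and Atf3 (0.37), and Lmo7 came eighth. Gal encodes the neuropeptide galanin and Atf3 a transcription factor of the ATF family. For Lmo7 they were Car1 (0.18), Fst (0.19), Lipn (0.20), Cckbr (0.22) and Adam8 (0.28). For Lipn they were Car1 (0.11), Adam8 (0.14), Fst (0.14), Cckbr (0.16) and Anxa10 (0.19), with Lmo7 sixth and Sprr1a number 21. Car1 is a carbonic anhydrase, Fst the activin-binding protein follistatin, Adam8 a membrane metalloprotease and Cckbr a cholecystokinin receptor. Car1, Fst, Cckbr and Adam8 were thus close to both Lmo7 and Lipn, and Anxa10 to both Sprr1a and Lipn. All of these genes share the 6 libraries and the same contrast. The order depends on the measure, and adding 1 to FPKM shrinks the change of low genes such as Lipn and Anxa10. By Pearson correlation over the 6 libraries, Lipn was at 0.990 with Sprr1a and at 0.978 with Lmo7. Like Lipn, Anxa10 passed the filter only through its crush libraries, with means of 0.438 FPKM in sham and 5.13 FPKM in crush.

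Lipn and Car1 illustrate such a match: Car1 measured 1.501, 1.38 and 1.08 FPKM in sham and 6.34, 5.67 and 8.91 FPKM in crush. For Sprr1a and Car3, the latter measured 5.36, 5.21 and 5.50 FPKM in sham and 40.6, 30.2 and 46.0 FPKM in crush. In each of the 4 genes crush 3 was highest and the groups did not overlap.

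The level of Sprr1a was set against its family and the other proteins of the cornified envelope, most of which lie in the same gene cluster, the epidermal differentiation complex. Of 42 other genes listed, most of them envelope precursors, 7 were in the table. All 7 were under the filter of a mean of 1 FPKM, so none was tested. The highest mean among them was 0.315 FPKM. The summed level of the 7 was 0.557 to 0.865 FPKM in the sham libraries and 1.78 to 3.01 FPKM in the crush libraries. Sprr2j-ps, a pseudogene by its name, was the most abundant of the 7 and lay 64.6 kb from Sprr1a on the same chromosome. It measured 0.0731, 0.0272 and 0.0490 FPKM in sham and 0.478, 0.387 and 0.875 FPKM in crush. Sprr2i, 74.6 kb away, measured 0.149, 0.0699 and 0.0436 FPKM in sham and 0.233, 0.208 and 0.467 FPKM in crush. Sprr2g measured 0, 0.0247 and 0.0453 FPKM in sham and 0.122, 0.0543 and 0.461 FPKM in crush. In these 3 genes and Lelp1 the crush values lay above the sham values without overlap, as in 11.6% of the genes with a mean above 0 and under 1 FPKM, and in Lor, Lce1f and Lce1g the groups overlapped. The crush means of Sprr2j-ps, Sprr2i and Sprr2g were 0.113%, 0.0590% and 0.0414% of that of Sprr1a. Sprr genes resemble each other in sequence, so how the authors divided reads among them is uncertain at such low levels.

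S100 genes code for small calcium-binding proteins, and those listed lie in the same complex. Of 14, 10 were tested and 1 rose: S100a11, a protein that also becomes part of the cornified envelope, from 9.20 ± 2.50 to 19.2 ± 3.51 FPKM (log2 change 1.001, limma adjusted p = 0.0413). The other 9 did not pass, and over all genes tested 3.78% passed. S100a10, the partner of annexin A2, had a log2 change of 0.46 (adjusted p = 0.339) and S100a6 one of -0.12 (adjusted p = 0.857). The median over the 10 was -0.08, against -0.02 over all genes tested. S100a11 was no longer called when any library but sham 2 was left out, with adjusted p = 0.1085 without sham 1, 0.146 without sham 3 and 0.125, 0.125 and 0.145 without crush 1, 2 and 3.

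Genes that build the envelope or the desmosome, the spot junction of epithelia, numbered 28 listed, 14 in the table and 8 tested. By limma 0 of the 8 passed, against 3.78% of all genes tested, with 2 at an unadjusted p under 0.05, a smallest adjusted p of 0.138 and a median log2 change of 0.04. The most abundant was Jup, which encodes plakoglobin, a protein of desmosomes and adherens junctions. It measured 99.3, 97.2 and 100.9 FPKM in sham and 101.5, 105.9 and 104.2 FPKM in crush (log2 change 0.07, adjusted p = 0.649). The protease inhibitor gene Cstb had a log2 change of -0.04 (adjusted p = 0.921). With library weights 0 of the 8 passed as well.

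**Figure D4:**
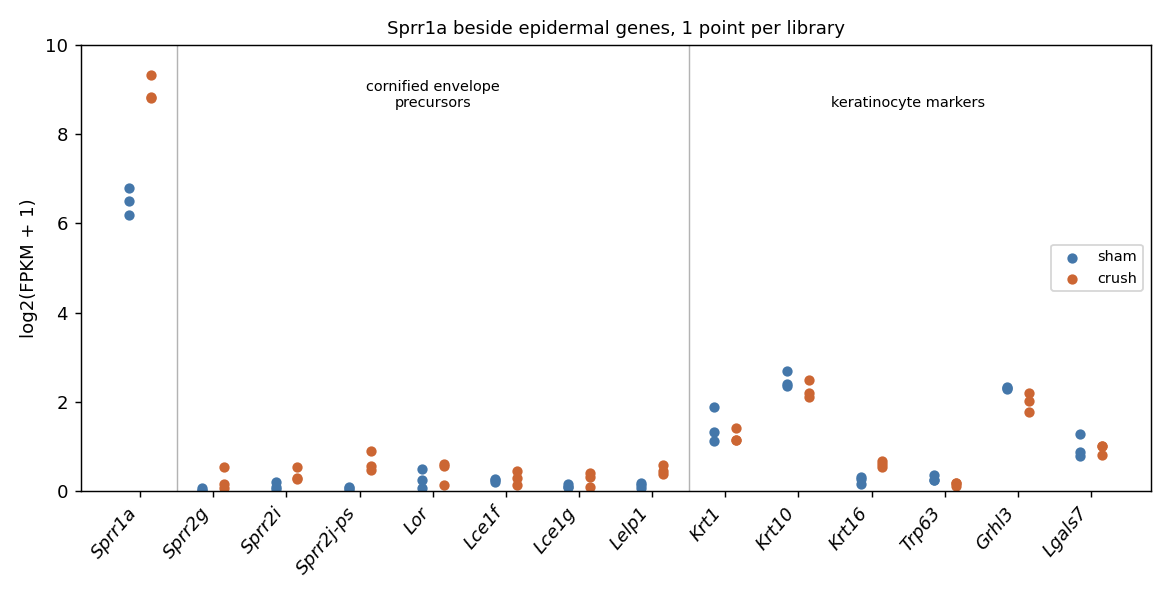
Log2(FPKM + 1) of Sprr1a, the 7 other cornified envelope precursors and the 6 keratinocyte markers in the table, 1 point per sham or crush library. Sprr1a in crush (445 to 640 FPKM) lies far above the envelope precursors, of which no library exceeds 0.875 FPKM, and above Krt10, which reaches 5.46 FPKM.

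Lmo7 was set against the proteins it is known to bind and the adherens junction. Of 38 genes listed, 30 were tested and by limma 0 passed, against 3.78% of all genes tested, with 4 at an unadjusted p under 0.05, a smallest adjusted p of 0.0735 and a median log2 change of 0.07. Mllt4, which encodes afadin, measured 8.39, 5.64 and 7.36 FPKM in sham and 8.16, 7.12 and 7.32 FPKM in crush (log2 change 0.08, adjusted p = 0.813). Ssx2ip, whose product links afadin and alpha-actinin, had a change of 0.09 (adjusted p = 0.591), the emerin gene Emd 0.05 (adjusted p = 0.813) and the alpha-actinin gene Actn1 -0.13 (adjusted p = 0.388). Ctnnb1, encoding beta-catenin, and the actin regulator gene Evl were the most abundant and had changes of 0.05 (adjusted p = 0.797) and -0.02 (adjusted p = 0.976). With library weights 2 of the 30 passed, both higher in crush (Cdh2 and Limd1), against 1429 of all 12289 genes tested. Without sham 2, 2 of the 30 were higher and 1 was lower in crush, against 1174 calls in either direction among the 12289.

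Other genes with a LIM domain, the zinc-binding fold from which Lmo7 takes its name, numbered 49 listed and 38 tested. Of these 2 rose, 2 fell and 34 did not pass, with a median log2 change of 0.00. Over all genes tested, 3.78% passed. Tes, which encodes the focal adhesion protein testin, averaged 3.56 ± 0.250 FPKM in sham and rose to 6.62 ± 1.27 FPKM in crush (0.73 on the log2 scale, limma adjusted p = 0.0315). Micall1, an endosome protein gene, rose from 8.42 ± 0.189 to 12.1 ± 0.512 FPKM (0.47, adjusted p = 0.0148). Limk1, the kinase gene that acts on cofilin, fell from 97.0 ± 5.24 to 76.2 ± 0.323 FPKM (-0.34, adjusted p = 0.0434). The nearest relative of Lmo7, Limch1, did not pass (0.25, adjusted p = 0.287). The calls of Tes, Micall1 and Limk1 were lost, with the direction kept, when sham 1, sham 3 or any crush library was left out: their adjusted p then ran from 0.0573 (Micall1 without sham 1) to 0.201 (Limk1 without crush 1). Limk1 was also not called with quantile scaling (adjusted p = 0.0603) or no filter (0.0504), and Tes, Micall1 and Limk1 not with reference isoforms only (0.0827, 0.602 and 0.119).

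Lipn was set against its family. Of 10 other acid lipase genes, 4 were in the table and tested, and by limma 0 passed, against 3.78% of all genes tested. An unadjusted p under 0.05 was found for 2 of the 4, and their median log2 change was 0.33. Lipa, the lysosomal acid lipase, was the most abundant and measured 29.7, 25.002 and 29.9 FPKM in sham and 27.6, 25.8 and 26.3 FPKM in crush (-0.08, adjusted p = 0.713). Lipo1 had a change of 0.20 (adjusted p = 0.429) and Lipo2 one of 0.47 (adjusted p = 0.107). Lipk is known like Lipn from differentiating keratinocytes. Among the authors' assembled transcripts that carry a gene name, it was the only other gene with exons within 100 kb of Lipn. Genes not assembled there would be missed. Lipk lay 17.1 kb away, at 34082713 to 34124504 on chromosome 19. It measured 1.22, 1.08 and 1.45 FPKM in sham and 1.95, 1.90 and 2.73 FPKM in crush. Its groups did not overlap and crush 3 was its highest library too, but its change of 0.50 did not pass (adjusted p = 0.0880). Over the alternatives its adjusted p ran from 0.0412, with library weights, to 0.209, without crush 3. No gene with values lay within 100 kb of Lmo7.

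Genes of neutral lipid storage and hydrolysis, the wider pathway of lipases, numbered 45 listed and 29 tested. Of these 1 rose, 0 fell and 28 did not pass, with a median log2 change of 0.01, while 3.78% of all genes tested passed. The gene that rose was Plin2, which encodes a coat protein of lipid droplets, with means of 28.0 ± 3.70 FPKM in sham and 61.4 ± 10.9 FPKM in crush (log2 change 1.097, limma adjusted p = 0.0147). The Plin2 groups did not overlap, at 26.5, 32.2 and 25.3 FPKM in sham and 58.8, 52.1 and 73.3 FPKM in crush. Its adjusted p was 0.0591 without sham 1, 0.0686 without sham 3 and 0.0765 without crush 1, and it stayed called without sham 2, crush 2 or crush 3.

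Over all 7 of these lists, 119 genes were tested, 4 rose, 2 fell and 113 did not pass, which is 5.04% called against 3.78% of all genes tested. The share called among genes related to Sprr1a, Lmo7 and Lipn was thus near the background. The number of calls was 0 without sham 1, sham 3 or crush 1, 1 without crush 2 or crush 3 (Plin2) and 14 without sham 2. The counts at an unadjusted p under 0.05 in the 3 settings with 0 calls were 21, 21 and 17 of the 119. Over all 12289 genes tested, these counts were 1963, 1736 and 1478.

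**Figure D5:**
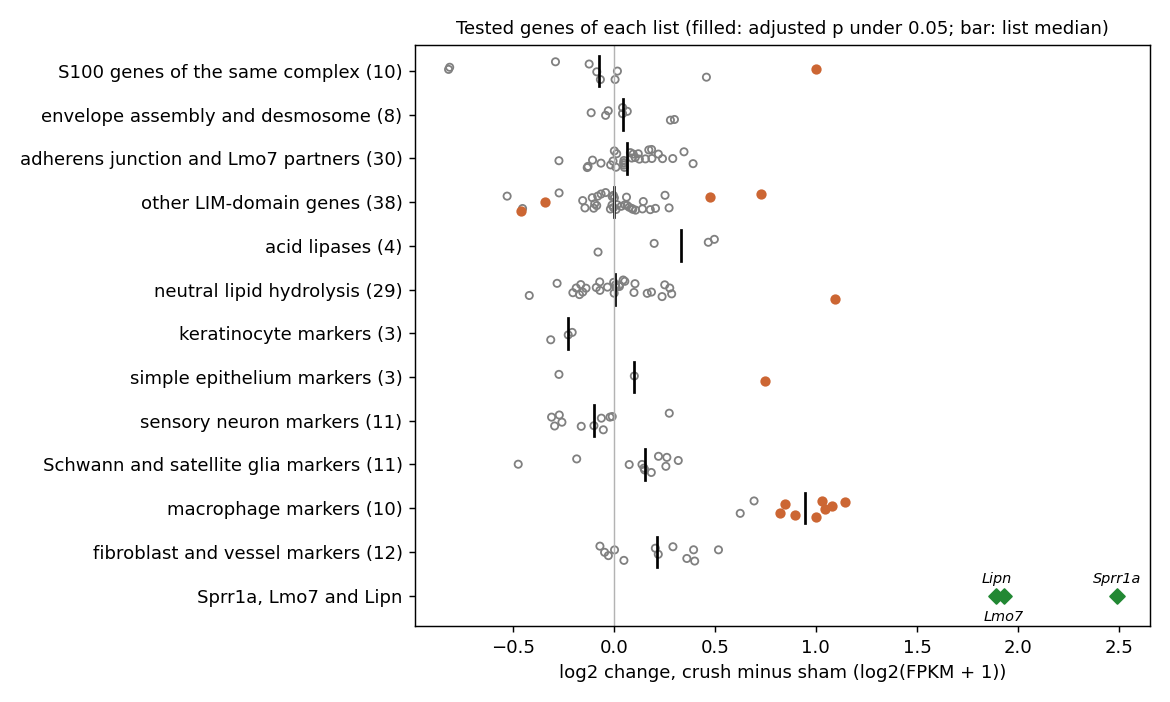
Log2 change (crush minus sham, log2(FPKM + 1)) of each tested gene in the lists of related genes and cell type markers, 1 circle per gene, filled where the adjusted p was under 0.05; bars are list medians, and diamonds show Sprr1a, Lmo7 and Lipn for scale. The list medians lie between -0.23 and 0.95, and the 3 genes at 2.49, 1.93 and 1.89.

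Markers of epithelial cells were checked because all 3 genes are expressed in skin. Of 17 keratinocyte markers looked up, Krt5 and Krt14 among them, 6 were in the table. No value of Krt5 or Krt14 entered these results. The 6 summed to 10.6 to 13.99 FPKM in sham and 8.92 to 10.4 FPKM in crush. By limma 0 of the 3 tested passed, against 3.78% of all genes tested, with 1 at an unadjusted p under 0.05. Their median was -0.23. Krt10, the most abundant, measured 4.30, 5.46 and 4.16 FPKM in sham and 4.59, 3.32 and 3.59 FPKM in crush (-0.23, adjusted p = 0.446).

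Of 18 markers of simple epithelium, 7 were in the table, with sums of 31.6 to 33.2 FPKM in sham and 28.1 to 31.4 FPKM in crush. Among the 3 tested, Krt19, a keratin gene, rose to 2.41 ± 0.207 FPKM in crush, against 1.04 ± 0.297 FPKM in sham (0.75 on the log2 scale, limma adjusted p = 0.0242), and 2 did not pass. Krt19 was not called without sham 1, sham 3, crush 1, crush 2 or crush 3 (adjusted p = 0.0848, 0.0984, 0.107, 0.0867 and 0.104). Cdh1, encoding E-cadherin, made up most of the sum, at 24.1, 23.0 and 23.4 FPKM in sham and 17.6, 21.5 and 18.99 FPKM in crush (-0.27, adjusted p = 0.150).

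The markers of sensory neurons were the most abundant, which fits the labelled cell type. The 11 of 12 in the table summed to 6681 to 8904 FPKM in sham and 7083 to 7992 FPKM in crush, led by Tubb3, the neuronal beta-tubulin, and Uchl1. By limma 0 of 11 passed, against 3.78% of all genes tested, with 3 at an unadjusted p under 0.05. Schwann cell and satellite glia markers, 11 of 12 in the table and led by Pmp22 and S100b, summed to 1654 to 1904 FPKM in sham and 1662 to 1806 FPKM in crush, and 0 of 11 passed, with 4 at an unadjusted p under 0.05. Marker RNA of cells other than neurons was thus present in both groups.

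Macrophage markers were higher in crush along with the 3 genes. Of 12 listed, 11 were in the table and 10 tested, and 8 rose, against 2.38% of all genes tested. The median log2 change of the 10 was 0.95. The macrophage markers in the table summed to 77.1 to 103 FPKM in sham and 156 to 175 FPKM in crush. Among those that rose were Csf1r (1.05), C1qa (1.03), C1qc (1.08) and Tyrobp (0.82), while the most abundant, Cd74, did not pass (limma adjusted p = 0.0521). The number that rose was 5, 10 and 4 without sham 1, 2 and 3 and 3, 3 and 5 without crush 1, 2 and 3. With the replicate block 2 of the 10 rose, with library weights 10, and with reference isoforms only 4 of 7 tested. Fibroblast and vessel markers, 12 of 13 in the table and led by Dcn and Col1a2, summed to 166 to 202 FPKM in sham and 228 to 235 FPKM in crush, and by limma 0 of 12 passed, with 5 at an unadjusted p under 0.05. Of 10 muscle and fat markers 4 were in the table, summing to 0.824 to 1.58 FPKM in sham and 1.18 to 2.08 FPKM in crush. No marker in the table was at 0 in every library. The part of macrophages or other non-neuronal cells in the levels of Sprr1a, Lmo7 and Lipn was not tested.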

How the data were processed

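Libraries of poly-A RNA, 3 sham and 3 crush, were made from laser-microdissected neurons, pooled by barcode and run on 3 lanes; batches of surgery or extraction are not given in the sources used here. The authors deposited FPKM per isoform and library, with interval bounds, pooled group estimates and a log2 fold change. The deposited exon file gives transcript coordinates and lengths (other units: bases, mm9). Per the submitters' processing notes TopHat 1.3.2, Cufflinks 1.1.0 and Cuffdiff 1.2.1 were used, and strand was not stated to be kept.

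Isoform FPKM was summed per gene name after removing the numbered suffix. Genes with a mean of at least 1 FPKM entered a limma fit of log2(FPKM + 1), in version 3.58.1 under R 4.3.3 (trended moderated variance, 2-sided), adjusted by the Benjamini-Hochberg method over all 12289 genes, threshold 0.05, and the fit was tested on simulated data. A pseudocount of 1 understates changes of low genes. Promoters came from RefSeq (GRCm38.p6) and transcript stretches from GENCODE M21; builds were not mixed. Tables and figures used matplotlib 3.10.9, numpy 2.4.6, pandas 2.3.3 and Python 3.11.15.

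The 3 genes and the lists were chosen with earlier results of these data known. Named are the 3 genes and their isoforms; per list the called genes of smallest adjusted p (up to 4 each way), or the 2 most abundant where none passed; genes within 100 kb; and the 5 genes most alike. Lelp1, Lor, Lce1f, Lce1g, Sprr2g, S100a10, S100a6, Mllt4, Ssx2ip, Emd, Actn1, Limch1, Lipo1 and Lipo2, further list members not tested or not passing, were added after their values were seen. Of the 2 LIM-domain genes that fell, 1 is not reported here. Alternatives changed the pseudocount, filter, scaling, isoforms summed, library weights, replicate block and libraries.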

Additional observations from a re-analysis of the deposited data

How the results depend on the processing

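The log2 changes of the 3 genes and of the called genes named kept their direction under each alternative that gave a value, but the balance of calls over all genes did not: 63.1% of calls were higher in crush, 90% with the replicate block, 51.4% with library weights, 51.7% to 85.3% with 1 library left out and 47.5% without sham 2 and crush 3. The number of genes called, 464, was 295 with a filter of 5 FPKM, 67 with reference isoforms only, 1429 with library weights, 50 with the replicate block, 53 to 1174 with 1 library left out and 1610 without sham 2 and crush 3 (added after seeing the data). Isoforms called numbered 15 (0.0613% of 24485), and 32 with a pseudocount of 5, 7 with no filter, 30 with upper-quartile scaling, 42 with quantile scaling, 1355 with weights, 0 with the replicate block (1560 at an unadjusted p under 0.05), 0 to 45 with 1 library left out and 5 without sham 2 and crush 3. The 6 calls among related genes became 0 with reference isoforms only, 0 with the replicate block and 17 with weights. They became 0 to 14 with 1 library left out and 17 without sham 2 and crush 3. With reference isoforms only, 12 of 88 related genes had an unadjusted p under 0.05, against 1004 of all 8465 tested. With the replicate block it was 20 of 119, against 1622 of 12289. By construction a pseudocount of 5 lowered the log2 change of Lmo7 to 1.36 and of Lipn to 0.88, and one of 0.1 raised Lipn to 2.69. Lipn was at 1.33 with its reference isoform alone, and Lmo7 at 1.67 without sham 2 and crush 3; causes were not tested. With 1 library left out the log2 change was 2.32 to 2.64 for Sprr1a, 1.80 to 2.08 for Lmo7 and 1.73 to 2.03 for Lipn. Lmo7 has no reference isoform and Lipn is under the 5 FPKM filter, so these gave no value. Deviations of same-numbered libraries from their group means correlated across genes at r = 0.37, -0.31 and -0.49. With 3 libraries per group and sham 2 apart from the others, these values cannot settle whether the numbers pair the samples. Since FPKM holds no read counts, the precision of low isoforms is known only from the deposited intervals.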

Other observations

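The stress keratin gene Krt16, picked after its values were seen, measured 0.240, 0.213 and 0.128 FPKM in sham and 0.462, 0.589 and 0.516 FPKM in crush, so its groups did not overlap. It was under the filter of a mean of 1 FPKM and was not tested. Among genes with a mean above 0 and under 1 FPKM, 11.6% had crush values above sham values without overlap. Of the 6 keratinocyte markers in the table, Krt16 was the only 1 with a higher mean in crush.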
